A study of Mus musculus with 4 samples.

Results

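The genes described here encode the nuclear subunits of the mitochondrial respiratory chain and the ATP synthase, measured with whole-transcript expression arrays in 4T1 cells, a metastatic mouse mammary carcinoma line that stands in for triple-negative breast cancer. They were chosen by gene symbol, as Nduf genes of the a, b, c, s and v series, Sdha to Sdhd, Cycs, and all Uqcr, Cox4 to Cox8 and Atp5 genes without pseudogenes, with the brightest row per gene. This gave 84 of the 30142 genes with a single symbol, all of them measured, namely 35 genes of complex I, 4 of complex II, 8 of complex III, 20 of complex IV, 16 of the ATP synthase (complex V) and the cytochrome c gene Cycs. The 4 arrays held 2 independent biological replicates of 4T1 cells carrying an shRNA against MCT-1 (genotype shMCT-1, grown out as clones under puromycin) and 2 of 4T1 cells with a scramble control (genotype NC). All cells were grown in the same serum-containing RPMI medium. The sources used here do not say whether the replicates of a group were separate clones, so p-values measure the spread between these samples. Ndufa11 and Ndufb4 lie outside the rule because their rows carry several symbols.

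The respiratory chain passes electrons from NADH (complex I) and succinate (complex II) through complex III and the small carrier cytochrome c to oxygen at complex IV, and the proton gradient it builds drives the ATP synthase. Each complex except complex II joins many nuclear-encoded subunits to a few encoded in mitochondrial DNA. Core subunits hold the flavins, iron-sulfur clusters or catalytic sites, and accessory subunits assemble and stabilise them. 4T1 cells are known to keep respiration beside glycolysis.

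All values are log2 expression summaries. Mcts1, which encodes the targeted protein MCT-1, was at 7.81 and 7.89 in the arrays labelled shMCT-1, against 7.86 and 8.05 in the NC arrays. The difference (here and below in log2 units, shMCT-1 less NC) came to -0.10 with an SE of 0.122 and a limma adjusted p of 0.945, so a lower transcript level was not detected and the direction of every difference rests on the titles and genotype labels. The description field settles nothing here, since the number in its shRNA name is 3 and 4 on the arrays labelled shMCT-1, and 1 and 2 on the NC arrays. Mcts2, a retrogene copy of Mcts1, was at 6.61 and 6.96 in the arrays labelled shMCT-1, against 5.81 and 6.61 in the NC arrays, with no overlap (difference 0.57, SE 0.302, limma adjusted p = 0.896), so it was not lower either, and the difference was 0.17 without NC replicate 1. The epithelial genes Epcam, Cdh1, Krt8 and Krt18 lay between 12.36 and 16.73 on every array. Of the macrophage markers, Adgre1 and Lyz2 stayed at or below 3.49, while Cd14 (8.58 to 9.11), Cd68 (8.26 to 10.15) and Csf1r (4.47 to 6.07) were higher, with the top values of Cd68 and Csf1r on NC replicate 1. The measured lymphocyte, fibroblast and endothelial markers stayed at or below 4.24, against array medians of 3.68 to 3.73. In bulk RNA, fewer cells of a type and less RNA per cell cannot be told apart. Because NC replicate 1 was the lowest array for many of the genes described, values without it or another array are given beside many of the results.

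The respiratory chain and ATP synthase transcripts showed no difference between shMCT-1 and NC cells that passed the test. Most differences were bounded below 2-fold, as they were over all rows. With limma, 0 of the 84 genes passed an adjusted p of 0.05, and 0.0% of all rows did. The lowest adjusted p among them was 0.882. At an unadjusted p under 0.05 there were 4 genes, all higher in shMCT-1 cells (Ndufc1, Ndufs8, Ndufa4 and Atp5h), beside 5.61% of all rows (3.08% higher and 2.52% lower). The log2 differences ran from -0.28 for Sdha to 0.57 for Cycs, and 0 of the 84 genes differed by 1.5-fold or more, against 2.43% of all rows. The 95% interval of the difference lay within a 2-fold change in either direction for 81 genes (96.4%), near the 93.2% of all rows. It reached beyond 2-fold for Ndufb3, Uqcrh and Cycs. For 61 of the 84 genes it lay within 1.5-fold, beside 44108 of all 65956 rows.

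**Figure D1:**
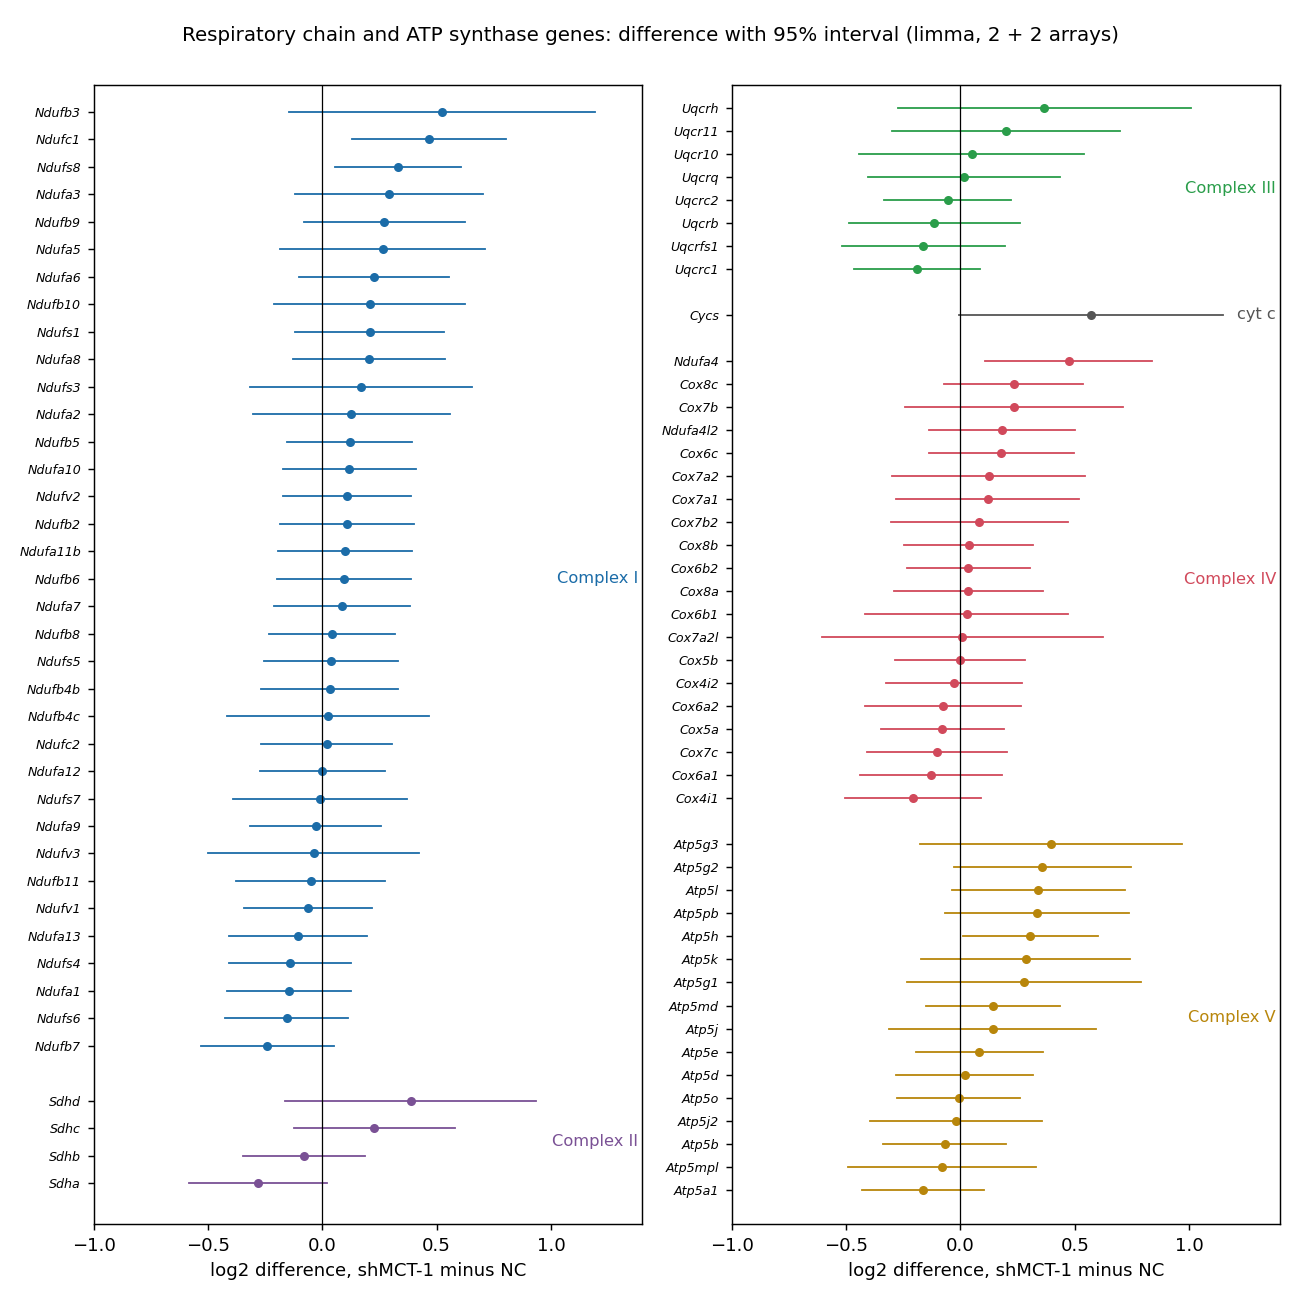
Log2 difference, shMCT-1 minus NC, of the 84 genes (points) with their 95% limma intervals (lines), ordered by size within each complex; n = 2 arrays per group. The differences lie between -0.28 (Sdha) and 0.57 (Cycs), and all intervals cross 0 except those of Ndufc1, Ndufs8, Ndufa4 and Atp5h.

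The median difference of the 84 genes was 0.067, beside 0.014 over all genes, and 80 of the 84 lay above the median signal of all rows. Of the 84 genes 56 (66.7%) were higher and 28 lower in shMCT-1 cells, where 54.2% of all genes were higher. After a further quantile normalisation 46 of the 84 were higher and their median was 0.022. The arrays of the groups did not overlap for 42 genes, 29 of them higher and 13 lower. Over all rows 33.9% (19.8% higher and 14.0% lower) had no overlap, and over genes above the median signal 37.5%. By complex the median was 0.095 for complex I, 0.073 for complex II, -0.020 for complex III, 0.035 for complex IV and 0.14 for the ATP synthase. With 1 array left out it ran from 0.049 to 0.13 for complex I (lowest without NC replicate 1) and from 0.0053 to 0.14 for complex II (lowest without shMCT-1 replicate 2, and 0.020 without NC replicate 1). Relative to each gene's mean over the arrays, the median position of the 84 genes was 0.011 and 0.074 on shMCT-1 replicates 1 and 2, against -0.090 and 0.028 on NC replicates 1 and 2. NC replicate 1 was the lowest array for 45 of the 84 genes (53.6%), against 30.9% of all genes and 35.6% of those above the median signal. The highest array was shMCT-1 replicate 2 for 42 genes (50%), against 26.7% and 31.8%. Without NC replicate 1, the median difference was 0.020 and 45 genes were higher.

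**Figure D2:**
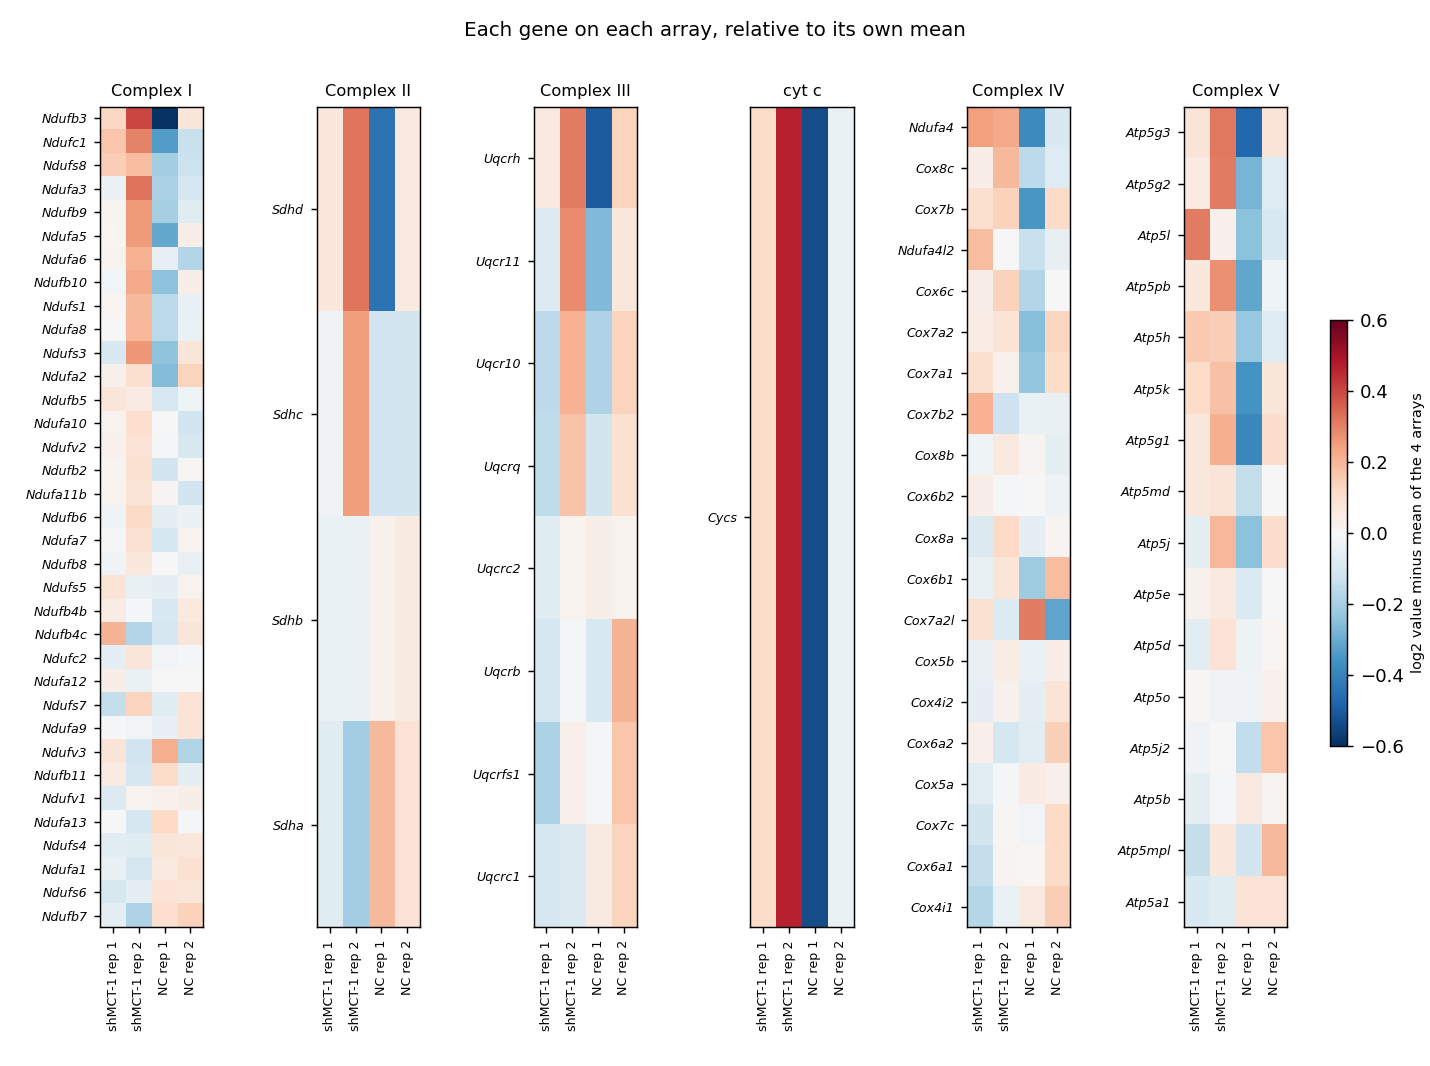
Log2 value of each gene on each of the 4 arrays minus the gene's mean over them, by complex, with genes ordered by their difference (shMCT-1 columns left of NC columns). The blue NC replicate 1 column among the upper genes is the array that was lowest for 45 of the 84 genes.

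Promoters are shown because nuclear respiratory genes are known to share binding sites for NRF1, the ETS factor GABP and YY1. In each complex the gene is the one with the lowest p among higher ones, though not always with the largest difference. Among genes lower in shMCT-1 cells, Sdha and Uqcrc1 had a smaller p than the gene shown for their complex. Each sequence is the RefSeq stretch of 120 bases before the start site on the minus strand of GRCm38.p6, at chr3:51408956-51409075 for Ndufc1, chr9:50603850-50603969 for Sdhd, chr6:50566570-50566689 for Cycs, chr4:116075071-116075190 for Uqcrh, chr6:11907451-11907570 for Ndufa4 and chr11:115419920-115420039 for Atp5h. Capitals mark the letters GCGCATG (the core of the NRF1 site), CCGGAAG (ETS) or AGATGGC (YY1) on either strand.
Ndufc1: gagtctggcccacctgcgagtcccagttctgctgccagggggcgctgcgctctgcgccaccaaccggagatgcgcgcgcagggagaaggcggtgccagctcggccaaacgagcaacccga
Sdhd: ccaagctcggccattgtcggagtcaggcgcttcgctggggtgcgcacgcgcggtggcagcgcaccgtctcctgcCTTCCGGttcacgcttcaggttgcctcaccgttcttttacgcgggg
Cycs: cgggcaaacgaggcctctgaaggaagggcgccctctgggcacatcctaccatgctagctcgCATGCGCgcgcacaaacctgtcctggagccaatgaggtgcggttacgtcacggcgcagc
Uqcrh: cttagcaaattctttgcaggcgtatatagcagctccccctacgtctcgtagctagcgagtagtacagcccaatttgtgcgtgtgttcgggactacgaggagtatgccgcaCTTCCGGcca
Ndufa4: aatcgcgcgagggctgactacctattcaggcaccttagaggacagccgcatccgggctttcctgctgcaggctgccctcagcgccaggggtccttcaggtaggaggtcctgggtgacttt
Atp5h: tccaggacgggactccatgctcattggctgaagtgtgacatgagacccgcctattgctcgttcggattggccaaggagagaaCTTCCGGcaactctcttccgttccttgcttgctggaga

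The ETS letters began 46 bases before the start of Sdhd, 10 before that of Uqcrh and 38 before that of Atp5h, each on the other strand, and the NRF1 letters 59 before that of Cycs, likewise on the other strand. In the full window of 250 bases before to 50 after the start, Cycs also held the YY1 letters at 190 before the start and Ndufc1 at 23 after it, while that of Ndufa4 held none of the 3 motifs. Of the 84 genes, 67 matched a RefSeq promoter. The NRF1 letters stood in 13 of these (19.4%), against 7.34% of promoters of genes above the median signal of all rows and 5.35% of those of all genes on the array. The ETS letters stood in 17 (25.4%), against 18.6% and 12.3%, and the YY1 letters in 13 (19.4%), against 8.09% and 6.95%. By complex, at least 1 of the motifs stood in 14 of 30 promoters of complex I, 5 of 14 of complex IV and 9 of 14 of the ATP synthase. Over all 67 this share was 50.7%, against 30.1% of promoters of genes above the median signal and 22.1% of those of all genes, and the 35.7% of complex IV was near the share of genes above the median signal. A match is a description of letters and was not tied to expression here, and the motifs were counted separately whether or not they overlapped.

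Complex I, the NADH dehydrogenase, had 25 of 35 genes higher and 10 lower in shMCT-1 cells, 14 and 5 of them with no overlap, where 19.8% of all rows were higher and 14.0% lower with no overlap. Ndufc1, a small accessory subunit of the membrane arm, was at 7.32 and 7.45 in shMCT-1 cells, against 6.82 and 7.02 in NC cells. Both shMCT-1 arrays were above both NC arrays, and the difference of 0.47 (SE 0.129, 95% interval 0.13 to 0.80, limma adjusted p = 0.882) was 0.36 without NC replicate 1. Ndufs8, a core subunit that carries iron-sulfur clusters on the path to ubiquinone, was at 13.39 and 13.43 in shMCT-1 cells, against 13.04 and 13.11 in NC cells. Its arrays were close within each group, and its difference of 0.33 (SE 0.105) ranged from 0.30 to 0.37 with 1 array left out.

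Ndufb3, an accessory subunit of the membrane arm, had the largest difference of complex I, at 0.52 (SE 0.255, adjusted p = 0.892, limma). Its values were 8.96 and 9.24 in shMCT-1 cells, against 8.25 and 8.91 in NC cells. The low array was NC replicate 1, and without it the difference was 0.19. Among lower genes, Ndufb7, a further accessory subunit of the membrane arm, was at 6.44 and 6.31 in shMCT-1 cells, against 6.60 and 6.64 in NC cells, a difference of -0.24 (SE 0.111). Ndufs6, an accessory subunit near the iron-sulfur arm, was at 10.99 and 11.03 in shMCT-1 cells, against 11.17 and 11.16 in NC cells (-0.16, SE 0.102). Its row carries 2 gene IDs under this symbol, so its signal may not come from 1 gene.

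Of the 6 core subunits of complex I in the list, 4 were higher and 2 lower (median 0.14, range -0.061 to 0.33), and of the 29 accessory subunits 21 were higher and 8 lower (median 0.086). With 1 array left out these medians ran from 0.035 to 0.22 and from 0.049 to 0.11. Ndufs1, the largest core subunit, differed by 0.21 (SE 0.124, and 0.11 without shMCT-1 replicate 2). Ndufv1, which holds the flavin that accepts electrons from NADH, differed by -0.061 (SE 0.107, from -0.11 to -0.010 with 1 array left out), and for each of these genes the groups did not overlap. Among accessory subunits, Ndufb9 was at 17.48 and 17.72 in shMCT-1 cells, against 17.27 and 17.40 in NC cells, a difference of 0.27 (SE 0.135). Ndufa3 (0.29, SE 0.158) and Ndufa6 (0.23, SE 0.125) were also apart, in the same direction. Without shMCT-1 replicate 2 the difference was 0.15 for Ndufb9, 0.11 for Ndufa3 and 0.13 for Ndufa6. In the other direction, Ndufa1 was at 8.32 and 8.27 in shMCT-1 cells, against 8.43 and 8.46 in NC cells (-0.15, SE 0.104), and Ndufs4, whose loss in mice is known as a model of Leigh syndrome, at 10.54 and 10.54 in shMCT-1 cells, against 10.68 and 10.68 in NC cells (-0.14, SE 0.101). Ndufs1, Ndufv1, Ndufb9, Ndufa3, Ndufa6, Ndufa1 and Ndufs4 were chosen after their values were seen. Ndufa11b, Ndufb4b and Ndufb4c are near-copies of Ndufa11 and Ndufb4, so their signal may be shared with those genes and is uncertain.

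Complex II, succinate dehydrogenase, was split by role. Its catalytic subunits were lower in shMCT-1 cells and its membrane anchors higher, with no overlap between the arrays for any of the 4 genes, beside 33.9% of all rows. Sdha, the flavoprotein that oxidises succinate, was at 10.81 and 10.67 in shMCT-1 cells, against 11.07 and 10.97 in NC cells. The difference was -0.28 (SE 0.116, adjusted p = 0.882, limma), from -0.35 to -0.21 with 1 array left out. Sdhb, the iron-sulfur subunit, was at 9.10 and 9.10 in shMCT-1 cells, against 9.17 and 9.20 in NC cells, a difference of -0.082 (SE 0.102) that was small beside its error.

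The anchors Sdhc and Sdhd bind ubiquinone in the membrane. Sdhd was at 12.53 and 12.79 in shMCT-1 cells, against 12.02 and 12.52 in NC cells, and the lowest shMCT-1 value barely cleared the highest NC value. Its difference of 0.39 (SE 0.209) was 0.14 with NC replicate 1 left out and 0.64 with NC replicate 2 left out. Sdhc was at 9.48 and 9.75 in shMCT-1 cells, against 9.39 and 9.39 in NC cells, a difference of 0.23 (SE 0.134) that was 0.093 without shMCT-1 replicate 2. None of the 4 genes passed the test, and the difference between anchors and catalytic subunits was not tested.

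Cycs, the mobile carrier between complexes III and IV that also triggers caspase activation when released, had the largest difference of the 84 genes. Its brightest row was at 14.19 and 14.53 in shMCT-1 cells, against 13.54 and 14.03 in NC cells. Both shMCT-1 arrays were above both NC arrays, with replicate 2 above replicate 1 in each group. The difference of 0.57 (1.49-fold, SE 0.220, 95% interval -0.0060 to 1.15, adjusted p = 0.882, limma) was 0.33 with NC replicate 1 left out and 0.82 with NC replicate 2 left out.

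The row ID of that Cycs row carries chromosome 19, whereas the gene lies on chromosome 6. IDs carried the chromosome of the gene in 98.8% of the 22815 rows that could be compared, and in all but 2 of the 83 genes here with a known chromosome, the other being Atp5l. The Cycs row with a chromosome 6 ID was at 12.59 and 12.93 in shMCT-1 cells, against 11.94 and 12.45 in NC cells. Its difference of 0.56 was close to that of the brighter row. Whether the brighter row reads a processed copy of Cycs was not tested.

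Complex III, which oxidises ubiquinol and reduces cytochrome c, had 4 of 8 genes higher and 4 lower. Its core proteins and Rieske protein were all lower in shMCT-1 cells. Uqcrc1, a core protein, was at 14.94 and 14.95 in shMCT-1 cells, against 15.09 and 15.17 in NC cells, with no overlap (difference -0.19, SE 0.105, adjusted p = 0.897, limma). Uqcrfs1, the Rieske iron-sulfur protein, was at 7.71 and 7.93 in shMCT-1 cells, against 7.90 and 8.07 in NC cells, and its groups overlapped (-0.16, SE 0.136, from -0.27 to -0.052 with 1 array left out). Uqcrc2, the other core protein, named after its values were seen, differed by -0.055 (SE 0.106), less than its error, and by -0.0070 without shMCT-1 replicate 1.

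Among the 5 small subunits of complex III, 4 were higher and 1 lower with a median of 0.050, and the groups overlapped for each of them. Without NC replicate 1, 2 of the 5 were higher and the median was -0.085. Uqcrh, the hinge protein at the cytochrome c site, was at 10.47 and 10.72 in shMCT-1 cells, against 9.91 and 10.55 in NC cells, so only NC replicate 1 was low, and its difference of 0.37 (SE 0.245) was 0.048 without that array. Uqcr11 was at 6.53 and 6.89 in shMCT-1 cells, against 6.34 and 6.68 in NC cells, and its difference of 0.20 (SE 0.191) was 0.033 without NC replicate 1. For 7 of the 8 genes of complex III the replicate 2 array was above the replicate 1 array in both groups. The same held for 50 of the 84 genes (59.5%), so it was not particular to complex III. It held for 30.4% of all genes and 39.4% of those above the median signal of all rows. The complex median ran from -0.14 without shMCT-1 replicate 2 to 0.085 without shMCT-1 replicate 1, and was -0.097 without NC replicate 1, so its sign was not stable.

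Cyc1, the cytochrome c1 of complex III, lies outside the symbol rule. It was at 11.49 and 11.83 in shMCT-1 cells, against 11.26 and 11.49 in NC cells (difference 0.28, SE 0.168, adjusted p = 0.899, limma), and its difference was 0.17 without NC replicate 1 and ran from 0.11 to 0.45 over the arrays left out. Ndufab1, the mitochondrial acyl carrier protein within complex I, also lies outside it and was at 6.02 and 6.23 in shMCT-1 cells, against 5.84 and 6.20 in NC cells, a difference of 0.11 (SE 0.169) that was -0.076 without NC replicate 1.

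**Figure D3:**
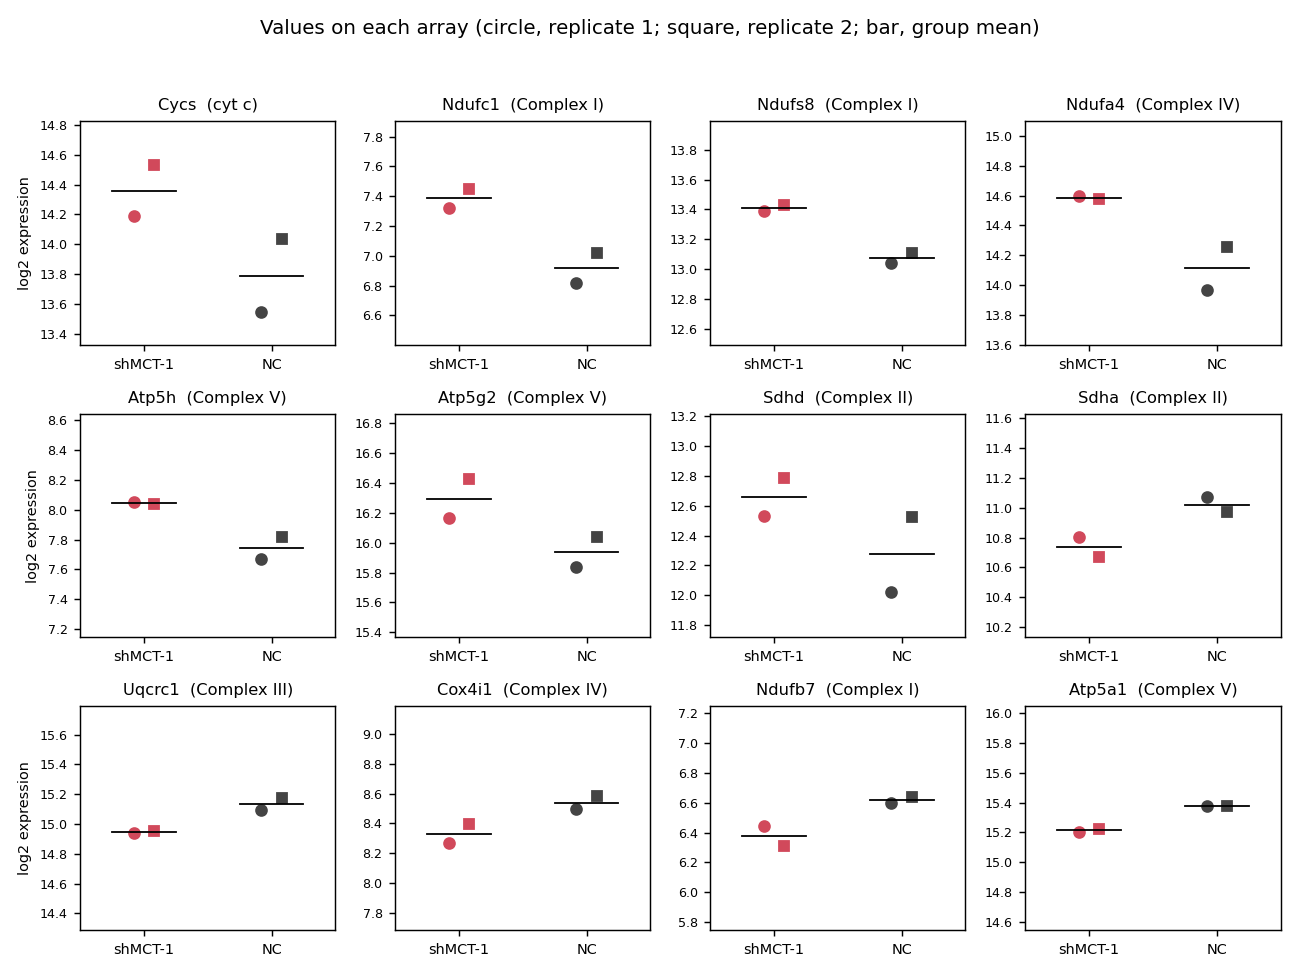
Log2 expression of 12 genes on each array (circles, replicate 1; squares, replicate 2; bars, group means of 2 arrays), shMCT-1 left and NC right, each panel spanning 1.5 log2 units. Cycs, Ndufc1, Ndufs8, Ndufa4, Atp5h, Atp5g2 and Sdhd are higher and Sdha, Uqcrc1, Cox4i1, Ndufb7 and Atp5a1 lower on both shMCT-1 arrays.

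Complex IV, the cytochrome c oxidase, had 13 of 20 genes higher and 7 lower, with 4 and 2 of them not overlapping. These 6 are 30.0% of the 20, against 33.9% of all rows, and 9 of the 20 were higher without NC replicate 1. Ndufa4, long assigned to complex I and now known as a complex IV subunit, had the lowest p here. It was at 14.60 and 14.57 in shMCT-1 cells, against 13.96 and 14.26 in NC cells, and the shMCT-1 arrays nearly coincided. Its difference of 0.47 (1.39-fold, SE 0.140, 95% interval 0.11 to 0.84, adjusted p = 0.882, limma) was 0.33 without NC replicate 1. Cox4i1, the ubiquitous form of the subunit that regulates the oxidase, was at 8.27 and 8.40 in shMCT-1 cells, against 8.50 and 8.58 in NC cells, with no overlap and a difference of -0.21 (SE 0.114).

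Other broadly expressed subunits gave smaller or overlapping differences. Cox6a1, which binds near the dimer interface, differed by -0.13 (SE 0.119, from -0.21 to -0.049 with 1 array left out), and its groups overlapped, at 15.70 and 15.86 in shMCT-1 cells, against 15.85 and 15.96 in NC cells. Cox7b was at 10.92 and 10.96 in shMCT-1 cells, against 10.48 and 10.94 in NC cells, so its difference of 0.23 (SE 0.182) was 0.0016 without NC replicate 1. Cox7a2 (0.12), Cox8a (0.035) and Cox6b1 (0.028) had differences below their errors, each turned below 0 when NC replicate 1 was left out, and Cox8a and Cox6b1 also after a further quantile normalisation. Cox6c (0.18, SE 0.121, and 0.091 without NC replicate 1) lay apart in the higher direction and Cox5a (-0.078, SE 0.103) in the lower, both named after their values were seen.

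Cox7a2l, also known as Scaf1, links complexes III and IV into supercomplexes. It was at 10.13 and 9.95 in shMCT-1 cells, against 10.34 and 9.72 in NC cells, so the NC arrays lay on both sides of the shMCT-1 arrays. The mean difference of 0.0090 (SE 0.234) became 0.32 with NC replicate 1 left out, -0.30 with NC replicate 2 left out and -0.025 after a further quantile normalisation.

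The 8 tissue-restricted isoforms of complex IV were dim. Their values on single arrays ran from 2.28 for Ndufa4l2 to 4.47 for Cox4i2, around or below the array medians of 3.68 to 3.73 except for Cox4i2 and Cox7a1, which lay above them on all 4 arrays, and no detection calls were used here. They were Cox6a2, Cox7a1 and Cox8b of heart and skeletal muscle, Cox6b2, Cox7b2 and Cox8c of testis, Cox4i2, known from lung and induced by low oxygen, and Ndufa4l2, a HIF-1 target that lowers respiration in low oxygen. Cox8c (0.23, SE 0.116) and Ndufa4l2 (0.18, SE 0.122, and 0.088 without shMCT-1 replicate 1) did not overlap between groups but lay at this dim end. The other 6 differed by -0.075 to 0.12. Ndufa4l2 was at 2.60 and 2.41 in shMCT-1 cells, against 2.28 and 2.36 in NC cells, and Cox4i2 at 4.33 and 4.41 in shMCT-1 cells, against 4.33 and 4.47 in NC cells.

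The ATP synthase turns the proton gradient into ATP through a membrane rotor of c subunits, a peripheral stalk and the catalytic F1 head. Of its 16 genes 11 were higher and 5 lower in shMCT-1 cells, 8 and 2 of them with no overlap, where 19.8% of all rows were higher and 14.0% lower with no overlap. Without NC replicate 1, 9 of the 16 were higher. The 3 genes for the identical mature subunit c were all higher. Atp5g2 was at 16.16 and 16.43 in shMCT-1 cells, against 15.83 and 16.04 in NC cells, with no overlap and a difference of 0.36 (SE 0.148, adjusted p = 0.882, limma), or 0.23 without shMCT-1 replicate 2. Its second row, whose ID carries chromosome 7 rather than the 15 of the gene, gave 0.39.

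Atp5g3 was at 11.61 and 11.85 in shMCT-1 cells, against 11.06 and 11.61 in NC cells. The lower shMCT-1 array and the higher NC array nearly met. Its difference of 0.40 (SE 0.219) was 0.12 with NC replicate 1 left out and 0.67 with NC replicate 2 left out. Atp5g1 was at 8.61 and 8.76 in shMCT-1 cells, against 8.16 and 8.65 in NC cells, with overlap, and its difference of 0.28 (SE 0.196) was 0.032 without NC replicate 1.

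In the peripheral stalk, which holds the F1 head still, 3 of 4 genes were higher, where 54.2% of all genes were. Without NC replicate 1, 2 of the 4 stalk genes were higher. Atp5h, its subunit d, was at 8.05 and 8.04 in shMCT-1 cells, against 7.67 and 7.81 in NC cells. The shMCT-1 arrays nearly coincided above both NC arrays, and the difference of 0.31 (SE 0.112, adjusted p = 0.882, limma) was 0.23 without NC replicate 1. Atp5pb, its subunit b, named after its values were seen, was at 11.63 and 11.84 in shMCT-1 cells, against 11.26 and 11.54 in NC cells (0.34, SE 0.154), and its difference was 0.19 without NC replicate 1.

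Genes of the F1 head had small differences. Atp5a1, the alpha subunit, was at 15.20 and 15.22 in shMCT-1 cells, against 15.38 and 15.38 in NC cells, a difference of -0.16 (SE 0.102) with tight replicates. Atp5b, the catalytic beta subunit, was at 15.41 and 15.45 in shMCT-1 cells, against 15.52 and 15.48 in NC cells (-0.069, SE 0.103). Atp5a1 and Atp5b were the only genes of the ATP synthase whose arrays lay apart in the lower direction. The 4 F1 genes had a median of -0.025, the 3 subunit c genes of 0.36, the 4 stalk genes of 0.22 and the 5 small membrane subunits of 0.14, and without NC replicate 1 these medians were -0.025, 0.12, 0.081 and 0.071. The roles were grouped from textbook knowledge with the values known, and their difference was not tested.

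Among the small membrane subunits, Atp5k (subunit e) was at 7.22 and 7.29 in shMCT-1 cells, against 6.76 and 7.19 in NC cells, and its difference of 0.29 (SE 0.175) was 0.071 without NC replicate 1. Atp5md, which helps dimers of the enzyme form, differed by 0.14 (SE 0.112, and 0.072 without NC replicate 1), and both were named after their values were seen. Atp5l, subunit g, was named because its rows disagreed. The brightest of its 3 rows, with a chromosome 5 ID, was at 13.77 and 13.49 in shMCT-1 cells, against 13.21 and 13.36 in NC cells (0.34, SE 0.145, and 0.20 without shMCT-1 replicate 1). The next, with the chromosome 9 ID of the gene, gave 0.23 (SE 0.147), and the dimmest, with values from 3.08 to 3.39, gave -0.014. With the chromosome 9 row, the ATP synthase median stayed at 0.14.

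**Figure D4:**
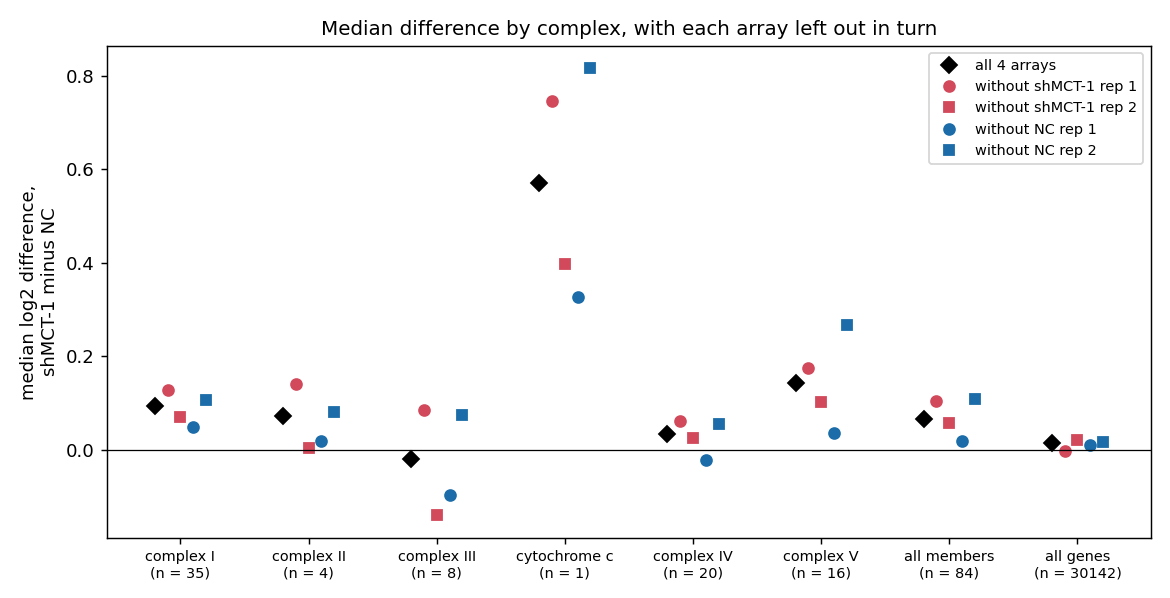
Median log2 difference, shMCT-1 minus NC, over the genes of each complex, over the 84 genes and over all 30142 genes, with all 4 arrays (diamonds) and with each array left out in turn (circles and squares). For the ATP synthase the median is 0.14 with all arrays, 0.036 with NC replicate 1 left out and 0.27 with NC replicate 2 left out.

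The ATP synthase median thus ran from 0.036 without NC replicate 1 to 0.27 without NC replicate 2, and NC replicate 1 was the lowest array for 12 of its 16 genes.

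Subunits encoded in mitochondrial DNA were represented by 5 genes. ND3 was at 18.15 and 18.21 in shMCT-1 cells, against 17.34 and 17.94 in NC cells (difference 0.54, SE 0.221), and the difference was 0.24 without NC replicate 1. ND6, encoded on the opposite strand from the rest, was at 16.97 and 17.12 in shMCT-1 cells, against 17.26 and 17.37 in NC cells (-0.27, SE 0.117). ND2 (-0.047, SE 0.109) and COX2 (0.013, SE 0.150, and -0.037 after a further quantile normalisation) had differences below their errors, and 0 of the 5 passed limma's adjusted test, with 0 at an unadjusted p under 0.05.

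Factors that assemble the complexes also did not pass. Of 39 measured, 24 (61.5%) were higher and 15 lower, where 54.2% of all genes were higher, and the median difference was 0.044. The groups did not overlap for 11 of the 39 (28.2%), against 33.9% of all rows. At an unadjusted p under 0.05 there was 1 in each direction, beside 5.61% of all rows. The median was 0.012 with NC replicate 1 left out and turned to -0.044 without shMCT-1 replicate 2. Cox20, a chaperone of the complex IV subunit COX2, was at 9.11 and 9.26 in shMCT-1 cells, against 8.66 and 8.85 in NC cells (0.43, SE 0.127, adjusted p = 0.882, limma). Ndufaf1, an assembly factor of the complex I membrane arm, differed by 0.25 (SE 0.102). Coa3, which guides early complex IV assembly, was at 10.38 and 10.36 in shMCT-1 cells, against 10.66 and 10.64 in NC cells (-0.28, SE 0.102), and Cox18, which inserts the COX2 tail into the membrane, differed by -0.29 (SE 0.129, and -0.17 without shMCT-1 replicate 1).

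A list of 17 genes of mitochondrial biogenesis held, among others, regulators of gene expression and factors of mitochondrial DNA replication. Of the 17, 12 (70.6%) were higher and 5 lower, with a median of 0.13, where 54.2% of all genes were higher. In this list 2 were under an unadjusted p of 0.05, both higher, beside 3.08% of all rows. Leaving out NC replicate 1 gave a median of 0.043, and leaving out shMCT-1 replicate 2 gave 0.036. Tfb2m, the factor that melts mitochondrial promoters for the RNA polymerase, was at 10.03 and 10.47 in shMCT-1 cells, against 9.33 and 9.86 in NC cells (0.65, SE 0.249, adjusted p = 0.882, limma), and the difference was 0.39 without NC replicate 1. Ssbp1, the single-stranded DNA binding protein of mitochondrial replication, was at 7.22 and 7.67 in shMCT-1 cells, against 6.60 and 7.01 in NC cells (0.64, SE 0.225, and 0.41 without shMCT-1 replicate 2). Polg, the catalytic subunit of the mitochondrial DNA polymerase, differed by -0.24 (SE 0.102) and Ppargc1b, a coactivator of respiratory genes, by -0.054 (SE 0.114). The factors behind the promoter motifs, Nrf1 (0.066, SE 0.165), Gabpa (0.18, SE 0.128, and 0.077 without NC replicate 1) and Yy1 (-0.035, SE 0.107), did not pass either, and these were named after their values were seen.

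In the citric acid cycle and pyruvate dehydrogenase list, 4 of 16 measured genes (25%) were higher and 12 lower, with a median of -0.071. Over all genes 54.2% were higher. The groups did not overlap for 2 higher and 7 lower genes, where 19.8% of all rows were higher and 14.0% lower with no overlap. Idh2, the NADP-dependent mitochondrial isocitrate dehydrogenase, was at 9.90 and 9.80 in shMCT-1 cells, against 10.70 and 10.26 in NC cells (-0.63, SE 0.179, adjusted p = 0.882, limma), and the difference was -0.41 without NC replicate 1. Pdha1, the alpha subunit of pyruvate dehydrogenase, was at 13.03 and 13.15 in shMCT-1 cells, against 13.38 and 13.35 in NC cells (-0.27, SE 0.110). Dlat (0.23, SE 0.117), its acetyltransferase, and Idh3b (0.16, SE 0.104), a subunit of the NAD-dependent isocitrate dehydrogenase, were the higher genes with the lowest p. Of the 16, 1 was at an unadjusted p under 0.05, beside 5.61% of all rows, and 0 passed limma's test after adjustment.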

How the data were processed

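Total RNA of 4 samples of 4T1 cells was hybridised to whole-transcript arrays, 2 of shMCT-1 and 2 of NC cells, grouped by title. The deposited values are log2 summaries per row, made by the authors with RMA and Affymetrix Expression Console, per the submitters' processing notes. The sources used here give no versions, options or build. RMA can compress differences of dim and very bright rows. All 4 columns were mapped, and 0 were left out.

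The table held 65956 rows, of which 30604 had 1 symbol, 2146 had several and 33206 were not listed in the probe annotation. Symbols of 827 rows were updated by gene ID with a GRCm38.p6 gene table, and Atp5l2, listed there as a pseudogene, was left out. Each gene was represented by its brightest row. Differences were fitted on all rows with limma 3.58.1 in R 4.3.3 (lmFit and eBayes, two-sided, Benjamini-Hochberg over all rows, threshold 0.05, 2 residual and 2.72 prior degrees of freedom), and the code was tested on simulated data. The number of arrays limits the precision.

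Members and lists were chosen with earlier results of these data known. Genes were named by rule: per complex the 2 with the lowest p in each direction and the 2 with the largest difference, all of complex II, Cycs, isoform sets, and the 2 lowest p per direction in 5 related lists. A further 18 genes were added after their values were seen. Atp5e is among these and is counted with the named genes, but is not described in the text. Promoters came from RefSeq. Alternatives were an intensity trend, robust moderation, a filter on dim rows, quantile normalisation, median centring, a replicate block, the mean over rows, other complex or symbol assignments, and leaving out each array. The rows of Cycs and Atp5l with the chromosome of the gene were added after seeing the data.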

Additional observations from a re-analysis of the deposited data

How the results depend on the processing

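In each of the 11 refits of all rows, 0 rows and 0 of the genes described passed limma's adjusted threshold, so the complex medians and signs are what could vary. Unadjusted p under 0.05 held for 3698 rows and 4 of the 84 genes, for 1984 and 0 without NC replicate 1, and for 5926 and 11 without NC replicate 2. Where 1 array remains in a group, its spread is taken from the other group. Same-numbered arrays deviated together (correlation 0.42 over all rows). The sources used here state no shared origin for them, and with only 2 pairs a shared origin was not tested. In this balanced layout a block for the replicate number cannot change a difference, so the medians by complex stayed the same by design. With it, 7537 rows and 12 of the 84 genes were under an unadjusted limma p of 0.05. After a further quantile normalisation the median was 0.026 for complex I, 0.038 for complex II and -0.090 for complex III. It was 0.087 for the ATP synthase and -0.0031 for complex IV, whose sign thereby turned from 0.035. With 1 array left out the median ran from -0.021 to 0.062 for complex IV and from 0.036 to 0.27 for the ATP synthase.

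Of 73 named genes 58 kept their sign in every setting tried, 15 turned with 1 array left out and 4 under another setting. Among these settings the intensity trend and the replicate block could not change a sign. With 1 array left out the differences ran from -0.097 to 0.042 for Cox4i2, -0.18 to 0.030 for Cox6a2, -0.17 to 0.23 for Cox6b1, -0.052 to 0.29 for Cox7a1, -0.068 to 0.32 for Cox7a2, -0.30 to 0.32 for Cox7a2l, -0.082 to 0.25 for Cox7b2, -0.069 to 0.14 for Cox8a, -0.0055 to 0.079 for Cox8b, -0.15 to 0.17 for COX2, -0.097 to 0.0020 for ND2, -0.076 to 0.29 for Ndufab1, -0.084 to 0.21 for Nrf1, -0.083 to 0.012 for Yy1 and -0.11 to 0.0045 for Ppargc1b. After quantile normalisation the difference was -0.080 for Cox6b1, -0.025 for Cox7a2l, -0.055 for Cox8a and -0.037 for COX2, and after median centring -0.017 for Cox7a2l and -0.013 for COX2. The cause was not tested.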
